A study of Mus musculus with 18 samples.

Results

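The ATP-binding cassette (ABC) transporter genes of the mouse liver were followed in 6 groups of animals. They were taken from the deposited expression table by name: genes whose symbol starts with Abca to Abcg followed by a number, with an accepted estimate (status OK) in all 6 groups. Described here are 48 of the 37303 genes in the table, and no gene of that name pattern was lost to a failed estimate. Of the 48, 36 were over 1 FPKM (fragments scaled to transcript length and to the mapped total, so a level per length) in any group and are described singly, by subfamily. The member just over this limit was Abca9, whose highest value was 1.04 FPKM, and the member just under it was Abcb9, at 0.991 FPKM.

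The RNA came from the livers of 18 C57BL/6J mice of both sexes. Wild-type (WT) mice, Gcn2-/- mice and Atf4-/- mice, with homozygous deletions present in every tissue, each received 8 daily intraperitoneal injections of asparaginase (ASNase, 3 IU per gram body weight) or of phosphate buffered saline (PBS), with 3 mice in each group. By the labels, livers were collected 7.5 h after the last injection from mice aged 8 to 16 weeks, while their growth protocol gives an upper age of 12 weeks. Males made up 1 of the 3 mice of WT PBS, Gcn2-/- PBS and Gcn2-/- ASNase, and 2 of the 3 mice of WT ASNase, Atf4-/- PBS and Atf4-/- ASNase. ASNase is a leukemia drug that removes asparagine and glutamine from the blood. GCN2 is the eIF2 kinase that senses a lack of amino acids, and ATF4 is the transcription factor whose translation follows eIF2 phosphorylation. The question put to the transporter genes was whether their response to the drug differed when either protein was missing.

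ABC transporters use ATP to move lipids, bile constituents, drug conjugates, metals and peptides across membranes. In hepatocytes, those of the canalicular membrane secrete bile acids, phospholipid, cholesterol and conjugated bilirubin into bile, those of the basolateral membrane export conjugates and cholesterol to the blood, and those of subfamily D bring long acyl chains into peroxisomes. Subfamilies E and F carry the ATPase domains but no membrane part, and work on ribosomes and in translation.

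Abcg5 and Abcg8, which form the obligate sterol pump of the canalicular membrane, stand head to head on chromosome 17. In Gcn2-/- livers both were among the members with the largest differences between ASNase and PBS, though neither passed the rule given below. Their log2 differences were -2.15 and -2.03 there, -1.51 and -1.22 in Atf4-/- and -0.21 and -0.11 in WT livers. They were the only pair of members, among the 38 with a RefSeq promoter entry, whose start sites lay within 300 bases on opposite strands and faced away from each other. The stretch between the start sites is shown because it is the upstream sequence of both genes at once (GRCm38.p6, chr17:84683012-84683120, 109 bases, written on the strand of Abcg8). Capitals mark the letters TTATCT, the reverse complement of AGATAA, the core of a GATA factor site, a motif chosen after the sequence had been seen.
Abcg5-Abcg8 intergenic stretch: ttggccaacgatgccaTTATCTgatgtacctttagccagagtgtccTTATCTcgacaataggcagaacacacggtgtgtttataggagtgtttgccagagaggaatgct

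The stretch held AGATAA on the strand of Abcg5 2 times. On either strand, AGATAA occurred in 11.2% of all 32851 RefSeq promoter windows of 300 bases (250 before and 50 after the start). The 28 members over 1 FPKM with a window had 35 windows, of which 3 held AGATAA (8.57%). These were windows of Abcf2, Abcg5 and Abcg8, the last 2 of which share these letters. AGGTCA, the half-site of many nuclear receptors, was found in 7 of the 35 windows (20.0%) and in 16.3% of all windows. The 7 were windows of Abcb6, Abcb11, Abcc2, Abcc10 and Abcg2. TGATGNAA, the core of the composite site that C/EBP and ATF proteins bind, was in 0 of the 35 windows of those 28 members and in 3.97% of all windows. A match or its absence describes these letters in this window only.

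The table gives 1 FPKM per group, estimated from the 3 libraries together, with a lower and an upper bound. The libraries are not given one by one, so values have no SD, differences have no replicate check and p-values could not be computed here. The study itself used Cuffdiff q values and listed more genes for ASNase against PBS in each strain than the rule below calls. A gene not called here could have passed there. Read counts are not given either. The bounds stand for the error here, and among the 36 members over 1 FPKM the distance from a value to its upper bound had a median of 61.9% of the value and ranged from 40.7% to 783%. Differences are on the scale log2(FPKM + 0.1), on which low genes change less than their ratio would give. A gene was eligible for a comparison with status OK and values above 0 in both groups and more than 3 FPKM in either, and it was called where its log2 difference passed 1.5 in size and its intervals were separate. The level of Eif2ak4, which encodes GCN2, lay between 2.19 and 3.14 FPKM in the 6 groups with no separation of the Gcn2-/- groups, but a value summed over the gene does not check a deletion of part of it. Atf4 had 32.3 and 29.3 FPKM in Atf4-/- livers against 50.4 to 68.1 FPKM in the other groups, with intervals that overlapped those of WT. The study reported from its read density plots that Atf4 was absent in Atf4-/- mice. It also measured Atf4 RNA by RT-qPCR. The gene value given here does not check that deletion either. Of 9 hepatocyte markers, 5 had an estimate in every group, with Hnf4a the lowest of them at 145 to 213 FPKM. Markers of other tissues differed between groups. In such bulk RNA, fewer cells of a type and less RNA per cell cannot be told apart.

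Added over the 48 genes, the level of ABC transporter RNA was 1169 FPKM in WT livers under PBS and 1145 FPKM under ASNase. In Gcn2-/- livers it was 1289 FPKM under PBS and 691 FPKM under ASNase, and in Atf4-/- livers 1034 and 639 FPKM. The drop in the summed value was not shared by every subfamily. The sums of subfamilies A, B, C, D and G were lower under ASNase than under PBS in both knockouts, and those of subfamilies E and F were higher. For subfamily A this rested on Abca8a, all of whose intervals reached 0: without it, the sum of the other 15 genes was 112 and 117 FPKM in Gcn2-/- and 122 and 133 FPKM in Atf4-/- livers under PBS and ASNase. For subfamily D, the mainly peroxisomal one, the sum over 3 genes went from 242 to 196 FPKM in WT, from 240.4 to 99.1 FPKM in Gcn2-/- and from 147 to 53.3 FPKM in Atf4-/- livers. For subfamily F it went from 67.7 to 69.5 FPKM in WT, from 69.9 to 89.6 FPKM in Gcn2-/- and from 69.3 to 90.3 FPKM in Atf4-/- livers. The summed level of the 5 hepatocyte markers moved the same way as the total, from 17823 to 7342 FPKM in Gcn2-/- and from 14998 to 5472 FPKM in Atf4-/- livers, against 16292 and 13275 FPKM in WT. Apoa1, Cyp2e1 and Ttr carried this sum, while Cps1 had 754 and 779 FPKM in Gcn2-/- and 791 and 498 FPKM in Atf4-/- livers, and Hnf4a had 149 and 145 FPKM in Gcn2-/- and 165 and 213 FPKM in Atf4-/- livers. The part of hepatocyte content in the sums was not tested.

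**Figure D1:**
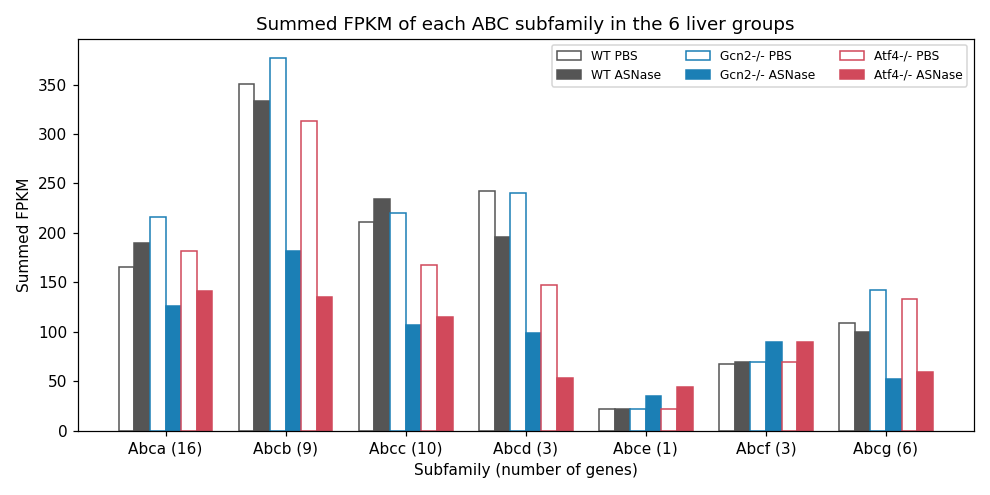
Summed FPKM (vertical axis) of the genes of each ABC subfamily (horizontal axis, with the number of genes) in the 6 liver groups; open bars are PBS, filled bars ASNase, and the table gives no error for a sum. Under ASNase the filled bars of both knockouts are shorter than the open ones in subfamilies A, B, C, D and G and taller in E and F, while the WT bars stay closer together.

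In WT livers under PBS the highest members were Abcd3 at 225 FPKM and Abcb11 at 217 FPKM, followed by Abcc3 at 88.9, Abcc2 at 72.9 and Abca8a at 65.1 FPKM. Neighbours in the order of levels could not be told apart: in each of the 6 groups, the intervals of all 35 neighbouring pairs among the 36 members overlapped. At the other end, 12 members stayed at or under 1 FPKM in every group. Abca15, Abca16 and Abcb5 were listed at 0 throughout, Abca12, Abca13, Abca17 and Abcc8 in some groups, and Abca4, Abca14, Abcb9, Abcc12 and Abcg4 had low values above 0 in all groups.

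**Figure D2:**
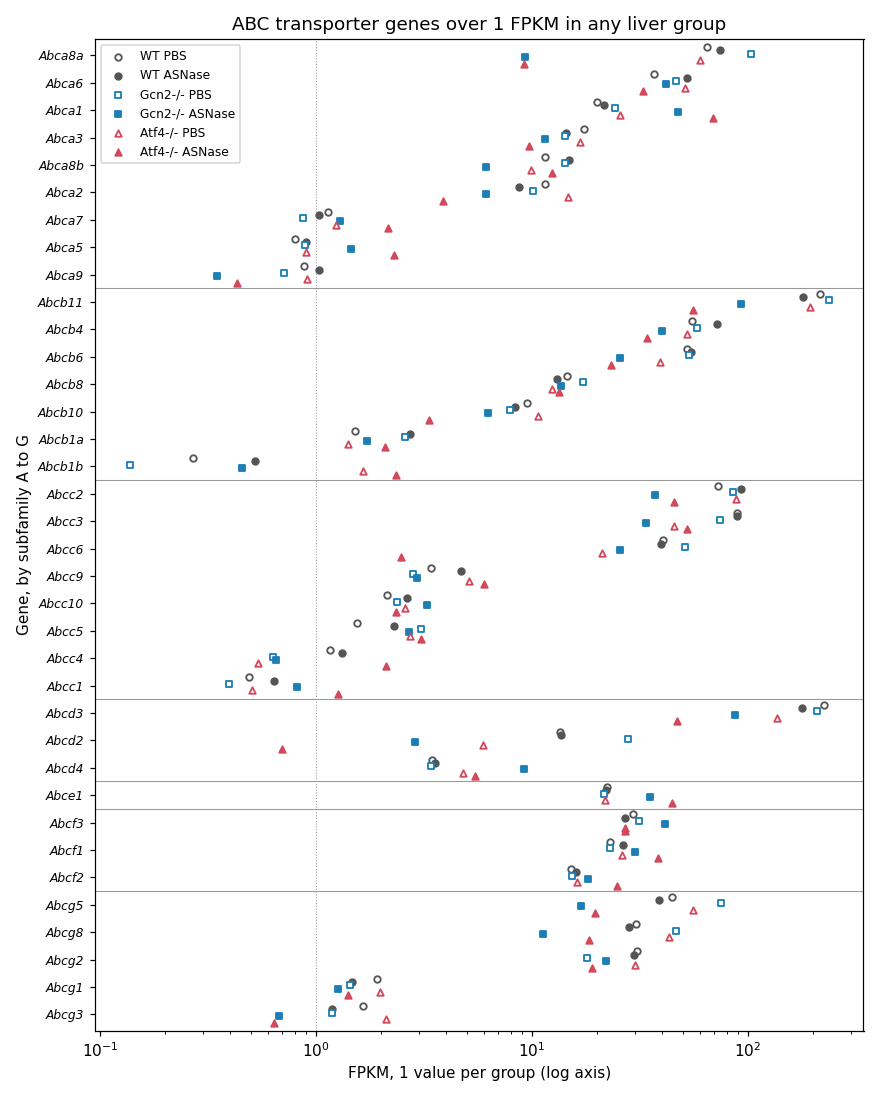
FPKM on a log axis (horizontal) of the 36 members over 1 FPKM in any group (vertical, by subfamily A to G and mean level); each symbol is the 1 value of a group, open for PBS and filled for ASNase, and the dotted line is 1 FPKM. Levels span from 0.138 FPKM for Abcb1b to 237 FPKM for Abcb11, and for Abca8a, Abcd2, Abcc6, Abcg5 and Abcg8 the filled symbols of 1 or both knockouts lie well to the left of the open ones.

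Subfamily A moves lipids. Abca1, the exporter of cholesterol and phospholipid to nascent high density lipoprotein, had 20.0 FPKM (bounds 4.22 to 35.8) under PBS and 21.7 FPKM (3.60 to 39.8) under ASNase in WT livers, 24.4 (6.02 to 42.8) and 47.6 FPKM (7.03 to 88.2) in Gcn2-/-, and 25.6 (5.17 to 46.1) and 68.8 FPKM (0 to 142) in Atf4-/- livers. The values of both ASNase-treated knockouts were the highest, but their intervals overlapped those of all other groups. The log2 differences to PBS were 0.96 in Gcn2-/- and 1.42 in Atf4-/-, and 1.66 between ASNase-treated Atf4-/- and WT livers.

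Abca8a, a transporter of the Abca5 to Abca9 cluster on chromosome 11 that has been tied to cholesterol efflux, showed the largest difference without a call. It had 65.1 (0 to 166) and 74.3 FPKM (0 to 199) in WT livers, 104 (0 to 268) under PBS and 9.26 FPKM (0 to 24.4) under ASNase in Gcn2-/-, and 60.3 (0 to 164) and 9.19 FPKM (0 to 25.1) in Atf4-/- livers. Both ASNase-treated knockouts were far below the 4 other groups. Every interval reached 0, however, so that neither the log2 difference in Gcn2-/- livers, -3.47, nor that in Atf4-/- livers, -2.70, passed.

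Its neighbour Abca8b had narrower bounds and a pattern of its own. WT livers had 11.5 FPKM (6.40 to 16.6) under PBS and 14.9 FPKM (8.25 to 21.5) under ASNase, Gcn2-/- livers 14.2 (8.05 to 20.4) and 6.15 FPKM (3.23 to 9.08), and Atf4-/- livers 9.91 (5.66 to 14.1) and 12.4 FPKM (6.63 to 18.3). The lowest value was that of the ASNase-treated Gcn2-/- group, 2.31-fold under its PBS group, with overlapping intervals. Abca8a and Abca8b are close copies whose reads the counting could split between them, so the share of each is uncertain, and the exons of Abca8b share 241 bases with the antisense gene Gm11697, which an unstranded library cannot tell apart.

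The chromosome 11 cluster holds further members. Abca6 was between 32.6 FPKM (Atf4-/- ASNase) and 52.2 FPKM (WT ASNase). Abca5 was between 0.799 and 1.46 FPKM in 5 groups and at 2.30 FPKM in ASNase-treated Atf4-/- livers. Abca9 was between 0.714 and 1.04 FPKM in WT livers and in both PBS-treated knockouts, and at 0.347 and 0.431 FPKM in the ASNase-treated Gcn2-/- and Atf4-/- livers. The intervals overlapped in each ASNase comparison of these 3 genes.

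Abca2, an endolysosomal lipid transporter, had 11.5 and 8.70 FPKM in WT livers under PBS and ASNase, 10.2 and 6.13 FPKM in Gcn2-/- and 14.8 and 3.90 FPKM in Atf4-/- livers. The last value was the lowest, a log2 difference of -1.90 to PBS, with overlapping intervals. Abca3 carries surfactant phospholipid in the lung. It was at 17.4 FPKM in WT PBS livers and between 9.70 and 16.7 FPKM elsewhere. The summed level of 7 lung epithelium markers was likewise highest in the WT PBS group, at 136 FPKM against 1.19 to 3.19 FPKM in the others, and its part in the Abca3 level was not tested. Abca7, a relative of Abca1 that acts in phospholipid handling and phagocytosis, was between 0.870 and 2.16 FPKM, highest in Atf4-/- ASNase livers.

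Subfamily B holds the main bile salt and phospholipid pumps and transporters of mitochondria. Abcb11 (chromosome 2, 69238282 to 69342616, minus strand, GRCm38), the bile salt export pump, had 217 (0 to 482) and 181 FPKM (22.7 to 339) in WT livers, 237 (0 to 478) and 93.1 FPKM (3.28 to 183) in Gcn2-/-, and 195 (15.4 to 374) and 56.1 FPKM (7.09 to 105) in Atf4-/- livers. The ASNase-treated knockouts were lowest, 2.54-fold and 3.48-fold below their PBS groups. Neither difference passed, since the intervals overlapped. Abcb4, the phospholipid flippase of the canaliculus, differed less: 55.2 and 72.2 FPKM in WT, 58.4 and 39.9 FPKM in Gcn2-/-, and 52.1 and 34.3 FPKM in Atf4-/- livers under PBS and ASNase.

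Among the mitochondrial members, Abcb8 kept to between 12.4 and 17.2 FPKM. Abcb6, linked to porphyrin transport, had 52.3 and 54.9 FPKM in WT livers under PBS and ASNase, 53.3 and 25.6 FPKM in Gcn2-/-, and 39.4 and 23.2 FPKM in Atf4-/- livers. It shares 2932 exon bases on its own strand with the transcript Gm29253, so its reads cannot be told from those of that gene. Abcb10, a transporter of the inner mitochondrial membrane needed for heme synthesis in red cell precursors, had 9.55 and 8.35 FPKM in WT, 7.93 and 6.28 FPKM in Gcn2-/-, and 10.7 and 3.34 FPKM in Atf4-/- livers. All its intervals reached 0, and the table places it in a merged locus shared by 155 genes. The summed level of 5 erythroid markers was 136 and 75.2 FPKM in WT, 80.6 and 8.36 FPKM in Gcn2-/-, and 110.4 and 4.29 FPKM in Atf4-/- livers, and its part in the Abcb10 level was not tested.

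Abcb1a and Abcb1b encode the P-glycoproteins, broad drug exporters. Abcb1a was between 1.42 and 2.72 FPKM. Abcb1b had 0.269 (0.0479 to 0.490) and 0.524 FPKM (0.157 to 0.890) in WT livers, 0.138 (0.00911 to 0.267) and 0.456 FPKM (0.142 to 0.770) in Gcn2-/-, and 1.66 (0.753 to 2.57) and 2.35 FPKM (1.19 to 3.52) in Atf4-/- livers. Both Atf4-/- groups stood above the other 4, with no overlap between the Atf4-/- and WT intervals under either treatment. The gene stayed under the limit of 3 FPKM and so could not be called. As close copies, these genes too could exchange reads.

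Subfamily C holds the exporters of conjugates. Abcc6 (chromosome 7, 45967555 to 46030302, minus strand), a liver transporter that releases ATP to the circulation and keeps soft tissues from calcifying, had 40.6 FPKM (11.6 to 69.7) under PBS and 39.7 FPKM (11.6 to 67.9) under ASNase in WT livers, 51.2 (11.8 to 90.5) and 25.7 FPKM (5.37 to 46.1) in Gcn2-/-, and 21.2 (6.47 to 35.9) and 2.47 FPKM (0.121 to 4.82) in Atf4-/- livers. The ASNase-treated Atf4-/- group lay below every other group without overlap. Abcc6 fell 8.58-fold against PBS in that strain, and the group was 16.1-fold under ASNase-treated WT and 10.4-fold under ASNase-treated Gcn2-/- livers.

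Abcc2, the canalicular exporter of conjugated bilirubin, had 72.9 and 93.3 FPKM in WT livers under PBS and ASNase, 85.8 and 37.3 FPKM in Gcn2-/-, and 88.6 and 45.6 FPKM in Atf4-/- livers. Abcc3, its basolateral counterpart, had 88.9 and 89.5 FPKM in WT, 74.0 and 33.9 FPKM in Gcn2-/-, and 45.8 and 52.3 FPKM in Atf4-/- livers. Intervals of both genes overlapped in every comparison. Abcc4, a basolateral exporter of bile acids and cyclic nucleotides, was low, at 0.540 FPKM (0.200 to 0.880) under PBS and 2.11 FPKM (1.10 to 3.12) under ASNase in Atf4-/- livers and between 0.637 and 1.32 FPKM in the others. In the Atf4-/- strain these intervals did not overlap, but the values were under 3 FPKM.

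Abcc9, the sulfonylurea receptor of muscle and vessel potassium channels, was between 2.81 and 5.99 FPKM, highest in the Atf4-/- groups. The summed level of 10 skeletal muscle markers was 829 and 1193 FPKM in WT, 5.81 and 8.95 FPKM in Gcn2-/- and 66.0 and 144 FPKM in Atf4-/- livers under PBS and ASNase, and its part in the Abcc9 level was not tested. Abcc1, Abcc5 and Abcc10, exporters of conjugates and nucleotide analogs, had values from 0.398 to 1.27, from 1.56 to 3.06 and from 2.14 to 3.27 FPKM.

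Subfamily D holds importers of acyl chains. Abcd2 (chromosome 15, 91145871 to 91191799, minus strand), which imports very long chain and unsaturated acyl-CoA into peroxisomes, had 13.5 FPKM (7.44 to 19.6) under PBS and 13.7 FPKM (7.33 to 20.1) under ASNase in WT livers, 27.8 (15.2 to 40.4) and 2.90 FPKM (1.58 to 4.22) in Gcn2-/-, and 5.92 (2.10 to 9.74) and 0.695 FPKM (0.263 to 1.13) in Atf4-/- livers. The intervals of both ASNase-treated knockouts lay below those of every other group, except that the Gcn2-/- ASNase interval overlapped that of Atf4-/- PBS. Abcd2 fell 9.59-fold under ASNase in Gcn2-/- and 8.51-fold in Atf4-/- livers, and was called in both. Under PBS, the highest of the 6 values was that of Gcn2-/- and the Atf4-/- value was below WT, but neither basal interval was separate from that of WT.

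Abcd3, the most abundant peroxisomal transporter, which takes up branched acyl-CoA and bile acid precursors, had 225 (0 to 495) and 179 FPKM (24.2 to 334) in WT, 209 (0 to 472) and 87.0 FPKM (2.50 to 171) in Gcn2-/-, and 136 (30.2 to 243) and 47.1 FPKM (11.0 to 83.3) in Atf4-/- livers. Its values were lowest in the same groups as those of Abcd2, but the intervals overlapped. Abcd4, which works in lysosomal cobalamin export rather than in peroxisomes, had its highest value in ASNase-treated Gcn2-/- livers, 9.19 FPKM (5.16 to 13.2) against 3.41 FPKM (1.73 to 5.08) under PBS. These intervals did not overlap, and the log2 difference of 1.41 was under the limit of 1.5. Elsewhere Abcd4 was between 3.41 and 5.48 FPKM.

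**Figure D3:**
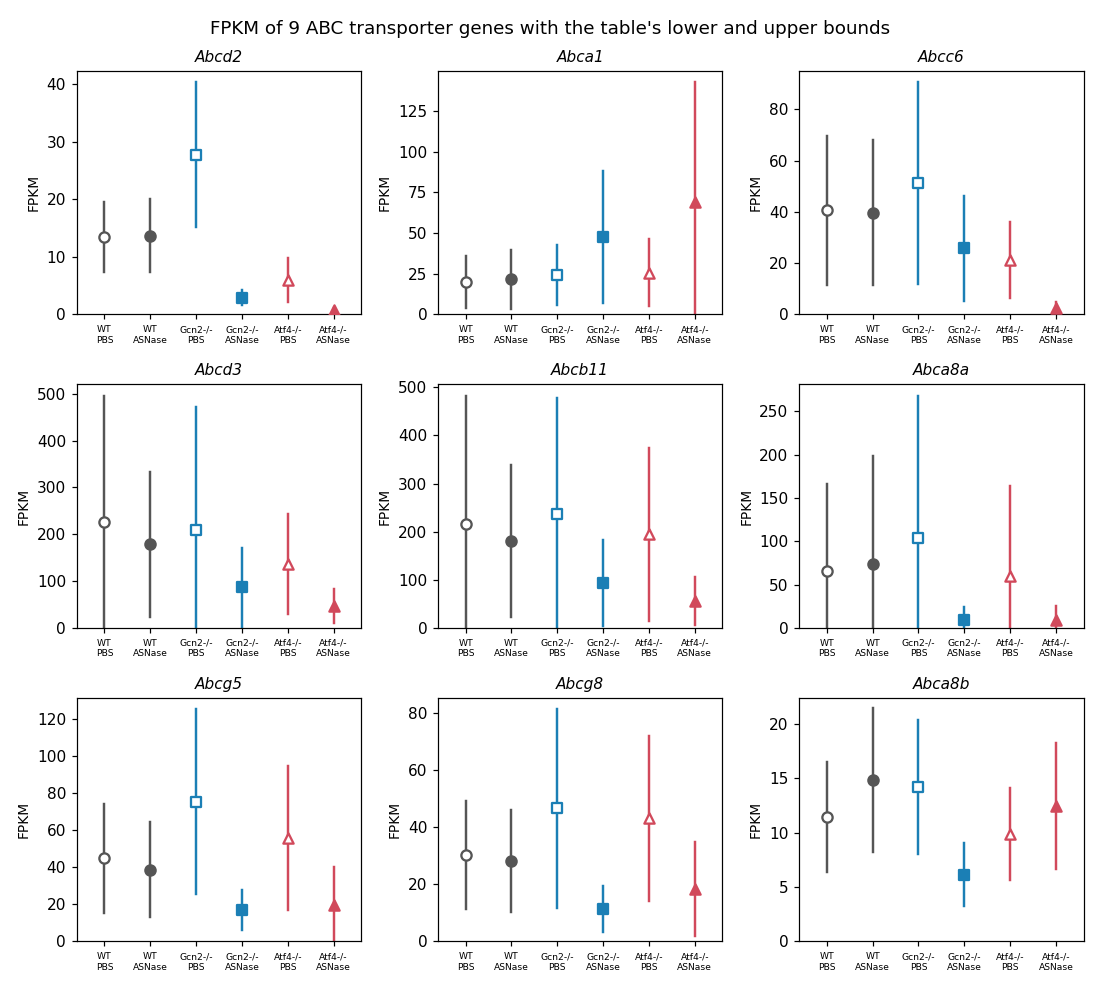
FPKM (vertical axes, linear, from 0) of 9 members in the 6 groups (horizontal axes); symbols are the group values, open for PBS and filled for ASNase, and lines run from the table's lower to its upper bound. The ASNase lines of Abcd2 in Gcn2-/- and of Abcd2 and Abcc6 in Atf4-/- end below the PBS line of the same strain, while for Abca1, Abcd3, Abcb11, Abca8a, Abcg5, Abcg8 and Abca8b each ASNase line overlaps the PBS line of its strain.

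Each member of subfamilies E and F had its highest value in an ASNase-treated knockout. Abce1, the ATPase that splits ribosomes for recycling, had 22.2 (13.0 to 31.5) and 22.1 FPKM (12.8 to 31.5) in WT, 21.7 (12.7 to 30.6) and 35.3 FPKM (19.7 to 51.0) in Gcn2-/-, and 21.8 (12.8 to 30.8) and 44.4 FPKM (24.4 to 64.5) in Atf4-/- livers. The 4 other groups lay within 1 FPKM of each other, and the intervals of the ASNase-treated knockouts still overlapped theirs. Abcf1, which acts in translation initiation, was between 23.0 and 30.1 FPKM in 5 groups and at 38.5 FPKM in Atf4-/- ASNase livers. Abcf2 was between 15.2 and 18.3 FPKM in the same 5 groups and at 24.8 FPKM in Atf4-/- ASNase livers. Abcf3 had its highest value, 41.2 FPKM, in the ASNase-treated Gcn2-/- group and was between 27.0 and 31.5 FPKM elsewhere.

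Subfamily G exports sterols and drugs. Abcg5 (chromosome 17, 84658234 to 84683011, minus strand) had 44.8 (15.6 to 74.1) and 38.8 FPKM (13.1 to 64.5) in WT, 75.3 (25.5 to 125) and 16.9 FPKM (5.96 to 27.8) in Gcn2-/-, and 55.7 (16.9 to 94.5) and 19.5 FPKM (0 to 39.9) in Atf4-/- livers. Abcg8 (chromosome 17, 84676302 to 84700333, plus strand) had 30.3 (11.4 to 49.2) and 28.2 FPKM (10.3 to 46.0) in WT, 46.6 (11.8 to 81.4) and 11.3 FPKM (3.15 to 19.5) in Gcn2-/-, and 43.1 (14.2 to 72.0) and 18.4 FPKM (2.07 to 34.7) in Atf4-/- livers. The genes of the pair followed the same order: highest in Gcn2-/- PBS, lowest in Gcn2-/- ASNase, next lowest in Atf4-/- ASNase. For Abcg5 in Gcn2-/- livers the difference was 4.46-fold, and the ASNase interval reached just past the lower bound of PBS. For Abcg8 it was 4.11-fold, also with overlap. The Abcg8 span given here is from GENCODE and starts inside that of Abcg5. The RefSeq start site of Abcg8 used for the stretch shown earlier lies at 84683121. Some annotated transcripts of the pair share 82 exon bases on opposite strands and the table gives both genes the same locus. Their values are thus not independent.

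Abcg2, an exporter of urate, drugs and sulfate conjugates, had 30.7 and 29.7 FPKM in WT, 18.1 and 22.0 FPKM in Gcn2-/-, and 30.0 and 19.1 FPKM in Atf4-/- livers under PBS and ASNase. Abcg1, a sterol exporter of macrophages, was between 1.27 and 1.97 FPKM. Abcg3, a rodent relative of Abcg2 that could share reads with it, was between 0.641 and 2.11 FPKM. Besides the overlaps already named, exons of Abca3 (914 bases), Abcb1a (553), Abcb10 (444), Abcc9 (158), Abcb1b (143), Abcb11 (136) and Abcc10 (51) share bases with a gene on the opposite strand, from which these libraries could not separate them.

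The comparison of ASNase with PBS showed how many of these members passed the rule in each strain. In WT livers 0 of 25 eligible members were called, where 0.881% of all eligible genes were called, and their log2 differences ran from -0.40 for Abca2 to 0.50 for Abca6. In Gcn2-/- livers 1 of 26 was called, Abcd2 at -3.22, beside 3.69% of all eligible genes. In Atf4-/- livers 2 of 26 were called, Abcc6 at -3.05 and Abcd2 at -2.92, beside 7.37% of all. These shares are near the background. All the calls were to lower values in the ASNase group.

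Without the condition on intervals, more members lay on the low side. In Gcn2-/- livers 10 of 26 eligible members were below a log2 difference of -1 (7.77% of all eligible genes), namely Abca8a, Abca8b, Abcb6, Abcb11, Abcc2, Abcc3, Abcd2, Abcd3, Abcg5 and Abcg8, and 1 was above 1, Abcd4 (6.35% of all). In Atf4-/- livers 9 of 26 were below -1 (12.8% of all), Abca2, Abca8a, Abcb10, Abcb11, Abcc6, Abcd2, Abcd3, Abcg5 and Abcg8, and 2 were above 1, Abca1 and Abce1 (10.9% of all). In WT livers 0 of 25 were below -1 (0.892% of all) and 0 above 1 (2.04% of all). Ranked by log2 difference, the eligible members had a median of 0.01 for WT, -0.44 for Gcn2-/- and -0.65 for Atf4-/- livers, against -0.01, 0.02 and 0.08 over all eligible genes. Members that stayed under 3 FPKM do not enter these counts and medians.

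**Figure D4:**
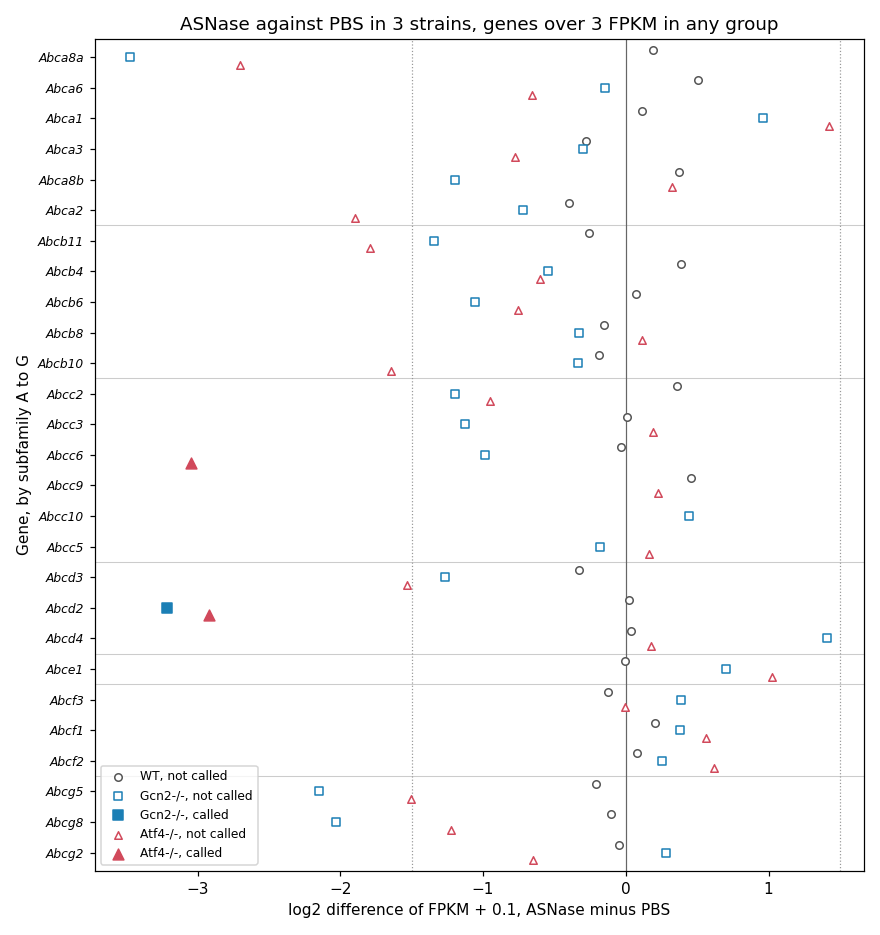
Log2 difference of FPKM + 0.1, ASNase minus PBS (horizontal axis), of the 27 members over 3 FPKM in any group (vertical axis) in WT (circles), Gcn2-/- (squares) and Atf4-/- livers (triangles); symbols are drawn where the gene was eligible, large filled ones are called, small open ones are not, and dotted lines mark -1.5 and 1.5. The 25 WT circles lie between -0.40 and 0.50, and the called symbols are Abcd2 in both knockouts and Abcc6 in Atf4-/-.

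The deletions were also compared without the drug. Under PBS, 0 of 26 eligible members were called between Gcn2-/- and WT livers (1.04% of all eligible genes), with differences from -0.76 for Abcg2 to 1.03 for Abcd2. Between Atf4-/- and WT livers 0 of 25 were called (1.12% of all), with differences from -1.18 for Abcd2 to 0.56 for Abcc9. Abcd2 was thus at opposite ends of the members in the 2 basal comparisons, which share the WT PBS group, and its intervals overlapped WT in both. Abcb1b, under the FPKM limit, was 6.18-fold higher in Atf4-/- than in WT livers with separate intervals. At the width of these bounds, the lack of calls does not show that the members were alike.

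Under ASNase, the knockouts were also set against WT directly. Between Gcn2-/- and WT livers 1 of 26 members was called, Abcd2 at -2.21 (4.41% of all eligible genes). Between Atf4-/- and WT livers 2 of 26 were called, Abcd2 at -4.12 and Abcc6 at -3.95 (8.25% of all). Between the ASNase-treated Atf4-/- and Gcn2-/- livers 1 of 26 was called, Abcc6 at -3.33 (3.19% of all). Abcd2 was not eligible there, since both values were under 3 FPKM, although 2.90 FPKM (1.58 to 4.22) in Gcn2-/- and 0.695 FPKM (0.263 to 1.13) in Atf4-/- did not overlap.

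Whether the response to ASNase itself differed between strains was asked by subtracting the log2 responses. A difference was counted when its size passed 1.5 and also passed the combined error of the 4 groups, which is the square root of their log2 errors squared and summed. Gcn2-/- minus WT passed for 2 of 27 eligible members (4.48% of all eligible genes), Abcd2 at -3.24 (error 1.40) and Abca8b at -1.57 (error 1.38). Atf4-/- minus WT passed for 1 of 26 (6.56% of all), Abcd2 at -2.94 (error 1.72). Abcc6 had a larger difference there, -3.02, but within its error of 3.13. Atf4-/- minus Gcn2-/- passed for 1 of 27 (3.65% of all), Abca8b at 1.52 (error 1.39), and for Abcd2 it was 0.30 (error 1.70). These responses share groups and are given side by side.

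The partners of the transporters were read from lists of genes that work beside them. Of 16 bile acid synthesis, uptake and secretion genes in the table, 0 were called between ASNase and PBS in WT, 3 in Gcn2-/- and 5 in Atf4-/- livers, all lower, beside 0.881%, 3.69% and 7.37% of all eligible genes. Ranked, the 16 had a median log2 difference of -0.06 for WT, -1.06 for Gcn2-/- and -2.02 for Atf4-/- livers. Cyp8b1, the 12-alpha-hydroxylase that sets the share of cholic acid, had 201 and 190 FPKM in WT, 58.2 and 8.22 FPKM in Gcn2-/-, and 56.3 and 1.81 FPKM in Atf4-/- livers, and was also called lower in both knockouts under PBS. Slco1a1, a basolateral uptake carrier, was called in both knockouts, going from 32.1 to 1.30 FPKM in Gcn2-/- and from 124 to 0.945 FPKM in Atf4-/- livers. Cyp7b1, an enzyme of the alternative bile acid pathway, was called in Gcn2-/- livers at -1.66 and not called in Atf4-/- livers at -1.82, where its intervals overlapped. Called in Atf4-/- and not in Gcn2-/- livers were Akr1d1 (-2.44), the bile acid and steroid reductase, Slc10a1 (-1.85), the main bile acid uptake carrier of the sinusoidal membrane, and Slc47a1 (-2.20), an organic cation exporter. The difference between the strains was not tested for these genes.

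Of 24 genes of peroxisome assembly and beta-oxidation, which act on what subfamily D imports, 0 were called in WT, 3 in Gcn2-/- and 4 in Atf4-/- livers, all lower, where 0.881%, 3.69% and 7.37% of all eligible genes were called. Acaa1b, a thiolase, had 627 and 541 FPKM in WT, 584 and 29.3 FPKM in Gcn2-/-, and 277 and 1.55 FPKM in Atf4-/- livers. Ehhadh, the bifunctional enzyme, differed by -2.48 (log2) in Gcn2-/- and by -2.51 in Atf4-/- livers, and Crot, which passes shortened acyl chains to carnitine, by -2.36 and -2.12. Amacr, the racemase for branched chains and bile acid precursors, was called in Atf4-/- at -1.85. Taken over the 24, the median difference was -0.04 for WT, -0.34 for Gcn2-/- and -0.68 for Atf4-/- livers, against -0.01, 0.02 and 0.08 over all eligible genes.

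Of 17 cholesterol and lipoprotein genes, 0 were called in WT (15 eligible), 0 in Gcn2-/- (14 eligible) and 3 in Atf4-/- livers (16 eligible), against the 7.37% of all eligible genes called in that strain. In Atf4-/- livers the cholesterol esterifying enzyme Soat2 was higher, from 17.2 to 103 FPKM, and 2 genes were lower: Lipc (-3.46), hepatic lipase, and Lipg (-4.79), endothelial lipase. Of 18 nuclear receptors and other factors known to act on transporter genes, 0 were called in WT and 1 in each knockout. Over all eligible genes, 0.881% were called in WT, 3.69% in Gcn2-/- and 7.37% in Atf4-/- livers. The called factor was Nr0b2, the repressor induced by the bile acid receptor, at -1.54 in Gcn2-/- and -4.43 in Atf4-/- livers. Its values were 24.4 and 16.0 FPKM in WT, 32.3 and 11.1 FPKM in Gcn2-/-, and 24.3 and 1.03 FPKM in Atf4-/- livers. Ppara, the receptor that controls peroxisomal oxidation genes, was at 43.8 FPKM under PBS and 8.52 FPKM under ASNase in Atf4-/- livers, which was not called. Nr1h3, the liver oxysterol receptor, stayed between 51.7 and 86.0 FPKM, and Nr1h4, the bile acid receptor, between 46.7 and 82.7 FPKM.

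Markers of sex and of other cell types were read beside these contrasts. The share of males was equal between ASNase and PBS within each knockout but not in WT. Of 4 Y-linked genes, Eif2s3y had 11.8 and 18.3 FPKM in WT, 11.0 and 13.1 FPKM in Gcn2-/-, and 23.2 and 26.4 FPKM in Atf4-/- livers under PBS and ASNase, and Ddx3y 5.62 and 11.6, 6.20 and 5.88, and 11.4 and 14.2 FPKM. Of 3 male-biased liver genes, Mup20 had 1041 and 1311 FPKM in WT, 971 and 363 FPKM in Gcn2-/-, and 1940 and 107 FPKM in Atf4-/- livers, so that male-biased genes were low in the ASNase-treated knockouts where Y-linked genes were not. The summed level of all 7 was 1470 and 1787 FPKM in WT, 1111 and 511 FPKM in Gcn2-/-, and 2444 and 265 FPKM in Atf4-/- livers.

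Summed over 8 macrophage markers, the level was 318 and 173 FPKM in WT, 211 and 345 FPKM in Gcn2-/-, and 372 and 216 FPKM in Atf4-/- livers. Its members differed in direction. In Gcn2-/- livers Marco went from 8.32 to 118 FPKM and Lyz2 from 54.1 to 134 FPKM. Clec4f went from 67.3 to 15.9 FPKM and Vsig4 from 17.7 to 8.56 FPKM. Cd163 had 1.59 and 4.39 FPKM, Csf1r 9.39 and 11.8 FPKM, Cd68 6.07 and 8.21 FPKM, and Cd5l 46.6 and 44.4 FPKM. Pancreatic acinar markers, 6 in all, summed to 292 FPKM in Atf4-/- ASNase livers and 4.94 to 49.5 FPKM elsewhere. The part of these in the values of Abcd2 and Abcc6 was not tested.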

How the data were processed

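Liver RNA of 18 mice in 6 groups of 3 was sequenced by the authors from poly-A libraries. Alignment by the authors was with TopHat on mm10 and estimation with Cuffdiff, and the deposited table holds FPKM values, 1 per gene and group from the 3 libraries together, with lower and upper bounds and a status. Groups were taken from the labels, and 0 value columns were left out of the map. The deposited FPKM carry no counts, so the depth behind a value is not known here and precision rests on the bounds. A failed estimate was left out, and an exact 0 is given only as listed at 0.

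Differences were taken as log2(FPKM + 0.1) with the calling rule given above, over all 37303 genes, in 8 comparisons, with Python 3.11.15, numpy 2.4.6 and pandas 2.3.3. No p-value was computed. The rule was tested on simulated data only for changes far past its limit. The changed genes there had a distance to the upper bound below their value. Smaller changes and members with wider bounds were not covered. Members over 1 FPKM in any group are named singly, members called in any comparison with their bounds, and partner genes where called after ASNase in a knockout; Cyp8b1 under PBS, Ppara, Nr1h3, Nr1h4, Eif6, the marker genes given singly, Tap1, Tap2 and Cftr were named after their values were seen. The members, lists and rules were chosen with earlier results of these data known. Gene positions and exon overlaps are from GENCODE M21 (GRCm38), and promoters from RefSeq (GRCm38.p6), which had entries for 38 of the 48 members. Alternatives were other pseudocounts, FPKM limits, fold limits, error rules, zeros and a median-ratio scaling. Some genes of the name pattern and of the partner lists are not reported here and stay out of the members' counts, sums and medians. Protein sequences were not used here.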

Additional observations from a re-analysis of the deposited data

Results flagged for a closer look

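Among eligible members, the ASNase responses of 2 differed between strains past both the limit and the combined error of the 4 group values. Abcc4, under 3 FPKM and so not eligible, also passed both. Its difference was 1.75 (error 1.63) between Atf4-/- and Gcn2-/- livers and 1.62 (error 1.53) between Atf4-/- and WT livers. No replicate check of these differences was possible, since each group has 1 value. For Abcd2 the difference in log2 response was -3.24 between Gcn2-/- and WT livers and -2.94 between Atf4-/- and WT livers. For Abca8b it was -1.57 (error 1.38) between Gcn2-/- and WT livers and 1.52 (error 1.39) between Atf4-/- and Gcn2-/- livers. Both sizes were only just past the limit of 1.5 and were not recomputed under the alternatives below. The reads of Abca8b are not separable from those of its close copy Abca8a with certainty.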

How the results depend on the processing

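The 8 counts of called members were recomputed under 8 alternatives, and 58 of the 64 counts were within 1.5 times the reported one. Among those 58, the count rose from 2 to 3 for ASNase against PBS in Atf4-/- livers, through Abcc4, called higher. For Atf4-/- against WT under ASNase it rose from 2 to 3 through Abcb1b, also called higher. Both rises came with FPKM over 1 in either group and with no FPKM limit. In the first comparison 775 of 11835 and 797 of 18626 eligible genes were then called. In the second these were 898 of 12031 and 935 of 18874. For ASNase against PBS in Gcn2-/- livers the count rose from 1 to 2 with the combined interval, which added Abcg5. It also rose to 2 with a log2 difference over 1, which added Abcd4. Of all 9218 eligible genes, 453 and 379 were called at these settings, against 340 as reported. For Atf4-/- against WT under PBS it rose from 0 to 1 with FPKM over 1 in either group, through Abcb1b. With no FPKM limit it was also 1, through the same gene. Of all eligible genes, 136 of 11640 and 153 of 18408 were called at these settings, against 101 of 9039 as reported. For Atf4-/- against Gcn2-/- under ASNase it rose from 1 to 4 with FPKM over 1 in either group, through Abcb1b, Abcc4 and Abcd2. With no FPKM limit it was also 4, through the same genes. Of all eligible genes, 353 of 11644 and 374 of 18150 were called at these settings, against 298 of 9355 as reported. Of 14 log2 differences recomputed with a pseudocount of 1 or median-ratio scaling, 14 were still called and 0 changed sign. The differences of responses between strains, those of Abca8b among them, were not recomputed. The scaling factors lay between 0.978 and 1.03. No paired analysis was possible because the table gives 1 value per group, which also left no library to leave out. With bounds this wide, a small difference could not have been called.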

Other observations

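Of 3 ABC genes that carry other names, Tap1 and Tap2 were eligible and had 0 calls in the 3 ASNase comparisons and the 2 basal ones. In these comparisons 0.881% to 7.37% of all eligible genes were called. Tap1 and Tap2, the peptide pump that loads MHC class I, were between 9.03 and 13.3 FPKM and between 8.26 and 13.5 FPKM. Cftr, the chloride channel of bile duct cells, was too low to be eligible, between 0.0194 and 0.0424 FPKM, and the summed level of 6 bile duct markers, Cftr among them, was between 20.1 and 39.9 FPKM.

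Of 18 genes of heme and iron-sulfur cluster synthesis, which work beside Abcb6 and Abcb10, 0 were called in the same 5 comparisons. Their median log2 differences after ASNase were -0.07 in WT, -0.26 in Gcn2-/- and -0.32 in Atf4-/- livers. Of 5 genes that work beside Abce1 in ribosome recycling and release, 0 were called. Both counts stand beside 0.881% to 7.37% of all eligible genes called in these comparisons. The largest difference among the 5 was that of Eif6, which keeps ribosomal subunits apart. It had 42.3 and 94.9 FPKM in Gcn2-/- and 43.0 and 145 FPKM in Atf4-/- livers under PBS and ASNase.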
